A study of Mus musculus with 6 samples.

Results

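The 7 genes described here encode surface proteins with published roles in the fusion of osteoclast precursors, namely Ocstamp, Dcstamp, Cd9, Cd81, Cd47, Sirpa and Adam8. They were chosen by name, with earlier results of these data known. All 7 were among the 23504 genes listed in the expression table. The libraries came from BMMs, macrophages grown from bone marrow of male C57BL/6 mice aged 6 to 8 weeks, and RNA was taken after 3 days. One group was treated with DASA-58, a small molecule activator of the glycolytic enzyme pyruvate kinase M2, and the other with the same volume of its solvent, DMSO, with 3 libraries in each group. The results text of the study has both groups induced with RANKL, the cytokine that drives osteoclast formation. Its methods name RANKL only beside the activator, so these 2 texts alone do not settle the RANKL status of the DMSO cells. The RNA of all 7 further osteoclast markers tested, given below, was higher in the DMSO group than in the DASA-58 group. The methods also spell the activator DASA-48, and no concentration is given for this experiment. The culture medium held M-CSF, the growth factor of macrophages. No source states whether the 3 libraries of a group came from separate mice or cultures, so the p-values measure the spread between these libraries, which may be technical.

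Osteoclasts, the cells that resorb bone, form when mononuclear precursors of the macrophage lineage fuse into multinucleated cells. RANKL induces the transcription factor NFATc1, which acts with AP-1 factors on many osteoclast genes, among them those of the multipass membrane proteins OC-STAMP and DC-STAMP, and cells without DC-STAMP do not fuse. The tetraspanins CD9 and CD81 organize other membrane proteins, CD47 and its receptor SIRPα form a recognition pair between macrophages, and ADAM8 is a membrane-bound metalloproteinase. These proteins act at the cell surface, and the values below are RNA levels only.

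In these BMMs the RNAs of OC-STAMP and DC-STAMP fell with DASA-58, whereas those of 4 of the 5 other surface proteins lay near their DMSO level. Ocstamp and Dcstamp fell to 47.6% and 46.9% of their DMSO mean, and Cd81 rose to 132%. In bulk RNA, fewer cells of a type and less RNA per cell cannot be told apart. Cd9, Cd47, Sirpa and Adam8 lay between 95.0% and 104% of their DMSO mean and did not pass the test. The level is given in FPKM, a fragment count scaled by the length of the gene and the depth of the library, so genes of unequal length can be compared. The test was limma on log2(FPKM + 1) over the 10965 genes averaging 1 FPKM or more, adjusted by Benjamini-Hochberg, with a limit of 0.05 on the adjusted p. Because 1 is added, this scale shrinks the fold changes of genes at a few FPKM. All 7 genes passed the filter.

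Of the 7 genes, 2 passed the test as lower, against 7.28% of all genes tested, and 1 as higher, against 4.24%. The DASA-58 libraries lay entirely below the DMSO libraries for 3 of the 7 genes, where 21.6% of all genes tested did so, and entirely above for 2, where 11.8% did so. Over all genes tested, 798 were lower and 465 higher, with a median log2 fold change of -0.03. That split depended on the scaling between libraries, since the lower and higher genes numbered 504 and 597 after centring on the median, 522 and 593 after scaling by a trimmed mean, and 588 and 600 after quantile normalization, whereas equal library totals gave 958 and 386. The calls of the 7 genes were the same under all 4 scalings. Ranked from the lowest log2 fold change, Dcstamp was gene 7 and Ocstamp gene 14 of the 10965, and Cd81 was gene 148 from the highest. Ocstamp and Dcstamp had been singled out by the study on these same libraries, so their fall here is not independent evidence. By RT-qPCR the study also reported lower RNA of both with PKM2 activators and with PKM2 knockdown. It reported less DC-STAMP protein with the knockdown. Those measurements are not part of the data used here.

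**Figure D1:**
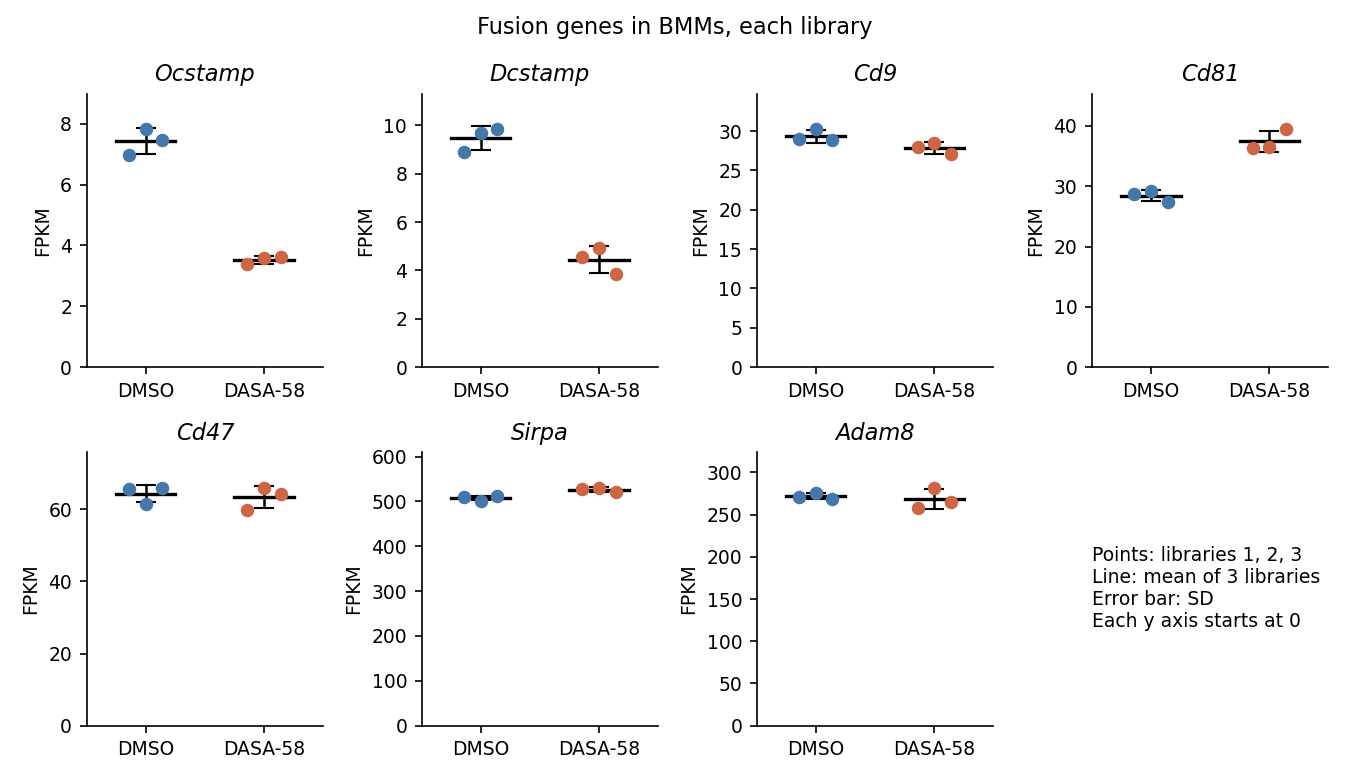
FPKM of each of the 7 fusion genes (y axes, each starting at 0) in the 3 DMSO libraries (blue points) and the 3 DASA-58 libraries (orange points), with the mean as a line and the SD as an error bar. The groups are far apart for Ocstamp and Dcstamp and apart upward for Cd81, while those of Cd47 and Adam8 overlap.

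The 7 genes covered a wide range of levels. With DMSO, Sirpa had the highest level, followed by Adam8, Cd47, Cd9, Cd81, Dcstamp and Ocstamp, whose means ran from 508 down to 7.42 FPKM. Cd9 and Cd81 were the only neighbours in that order whose libraries overlapped with DMSO. With DASA-58 Cd81 stood above Cd9, and no neighbours in the order overlapped. Among the genes tested, Sirpa lay at percentile 99.3 of the mean level, Adam8 at 98.4 and Cd47 at 92.4, whereas Ocstamp lay at 37.3 and Dcstamp at 44.5. Both genes that fell were thus the lowest of the 7 in level.

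**Figure D2:**
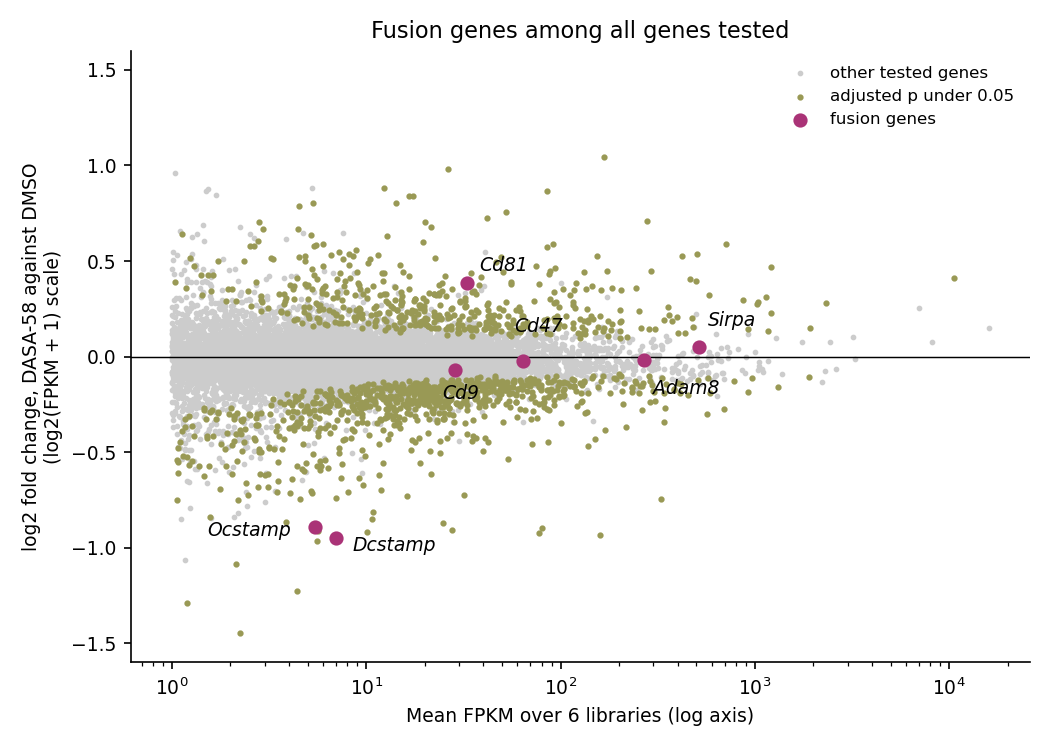
log2 fold change of DASA-58 against DMSO on the log2(FPKM + 1) scale (y axis) against mean FPKM over the 6 libraries (x axis, log scale) for the 10965 genes tested, with genes at an adjusted p under 0.05 in olive, other genes in grey and the 7 fusion genes as large purple points. Dcstamp and Ocstamp sit near the lower edge at -0.95 and -0.89, Cd81 at 0.38, and the other 4 close to 0.

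Ocstamp (ENSMUSG00000027670) encodes OC-STAMP and lies on the minus strand of chromosome 2 from 165393760 to 165400405. Positions are those of the GENCODE annotation of GRCm38, while the processing notes of the submitters name the build mm8. Its level was 6.97, 7.82 and 7.48 FPKM in DMSO libraries 1, 2 and 3, and 3.38, 3.59 and 3.62 FPKM in DASA-58 libraries 1, 2 and 3. All DASA-58 libraries were below all DMSO libraries, and the lowest DMSO value was well above the highest DASA-58 value. The mean fell from 7.42 ± 0.424 to 3.53 ± 0.129 FPKM (SD, n = 3 each). The log2 fold change was -0.89 with a standard error of 0.053, a 95% interval of -1.02 to -0.77 and an adjusted p of 9.7e-05 (limma, Benjamini-Hochberg). Without the pseudocount, the log2 ratio of the means was -1.07.

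Dcstamp (ENSMUSG00000022303) encodes DC-STAMP and lies on the plus strand of chromosome 15 from 39745930 to 39760938. Its level was 8.91, 9.69 and 9.84 FPKM in the DMSO libraries, and 4.56, 4.94 and 3.84 FPKM in the DASA-58 libraries. The groups did not overlap, and DASA-58 library 3 was the lowest of all. The mean fell from 9.48 ± 0.495 to 4.44 ± 0.560 FPKM (SD, n = 3 each), with a log2 fold change of -0.95, a standard error of 0.078, a 95% interval of -1.13 to -0.77 and an adjusted p of 4.8e-04 (limma, Benjamini-Hochberg). The log2 ratio of the means was -1.09. The coefficient of variation of Dcstamp was 12.6% with DASA-58, where counting error alone would give 7.78%, and 5.22% with DMSO, where it would give 5.35%. For Ocstamp it was 5.72% with DMSO and 3.64% with DASA-58, against 4.46% and 6.44% from counting error.

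For each of these 2 genes an exact two-sided permutation test of FPKM gave p = 0.10, the smallest that 3 libraries against 3 can give. The fragments behind the values were recovered from the steps of the FPKM values. Ocstamp had 468 to 539 fragments per DMSO library and 233 to 251 per DASA-58 library, and Dcstamp had 326 to 364 and 145 to 179. A count of 0 allows 3 fragments, between 0.158 and 0.165 FPKM for a gene of 1000 bases, and this covers counting error only. Both genes had far more than 3 fragments in every library.

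Whether Ocstamp and Dcstamp fell by the same amount was asked with the ratio of their FPKM within each library, which needs no scaling between libraries. The ratio was 0.782, 0.807 and 0.760 in the DMSO libraries and 0.743, 0.728 and 0.943 in the DASA-58 libraries. DASA-58 library 3, with the lowest Dcstamp, had the highest ratio, and the groups overlapped. The log2 ratio differed by 0.03 between the groups with a standard error of 0.12 (exact permutation test, two-sided, p = 1.0, adjusted p = 1.0 over 5 ratios). Without DASA-58 library 3 this difference was -0.09, so its direction rested on that library. An unequal fall of these 2 genes was not detectable with 3 libraries a group, whose exact p cannot go under 0.10.

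The fall was also set beside that of Ctsk, the gene of the bone-matrix protease cathepsin K, a marker of osteoclasts. Ctsk was 214, 212 and 203 FPKM in the DMSO libraries and 112, 106 and 111 FPKM in the DASA-58 libraries. Its groups did not overlap, and the log2 fold change was -0.93. The ratio of Ocstamp to Ctsk was 0.0325, 0.0368 and 0.0369 with DMSO and 0.0302, 0.0339 and 0.0326 with DASA-58. These values overlapped, with a difference of -0.13 on the log2 scale (standard error 0.077, exact permutation test, two-sided, p = 0.3, adjusted p = 0.5). For Dcstamp to Ctsk the ratios were 0.0416, 0.0456 and 0.0485 with DMSO and 0.0407, 0.0466 and 0.0345 with DASA-58, again overlapping, with a difference of -0.16 (standard error 0.14, exact permutation test, two-sided, p = 0.4, adjusted p = 0.5). With a pseudocount of 1 the difference of Ocstamp to Ctsk was 0.037, of the opposite sign. No test of these ratios can give a p under 0.10.

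**Figure D3:**
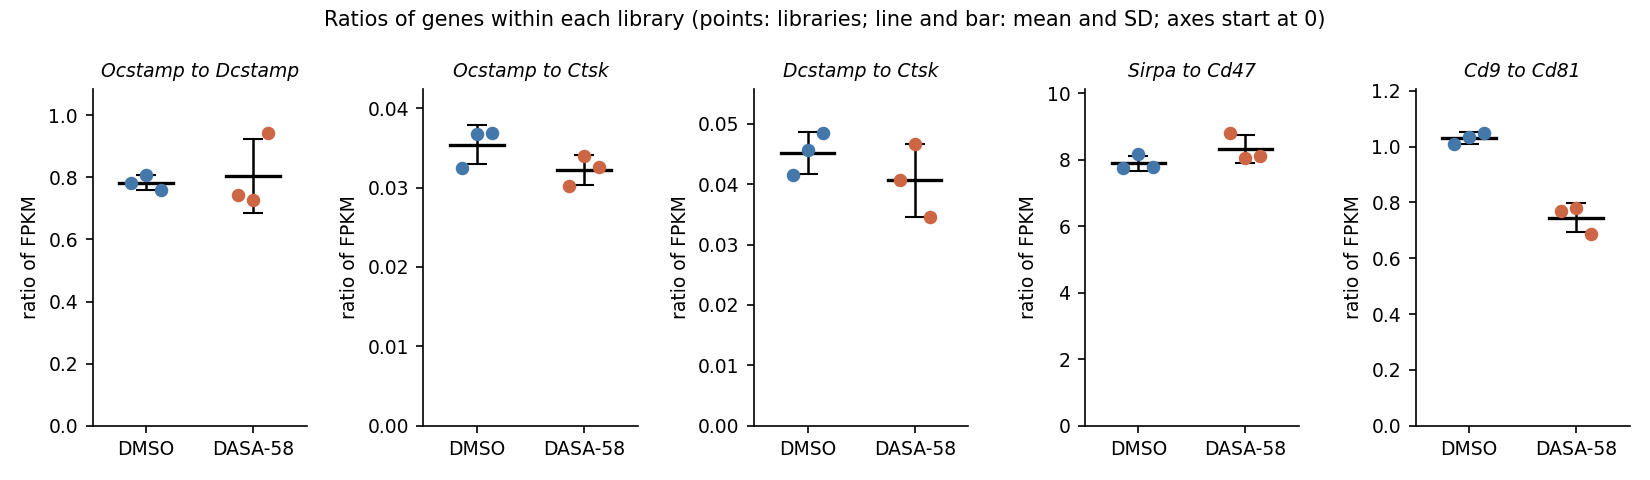
Ratio of the FPKM of named gene pairs within each library (y axes, each starting at 0) in the DMSO libraries (blue) and the DASA-58 libraries (orange), with the mean as a line and the SD as an error bar. The 3 ratios between Ocstamp, Dcstamp and Ctsk overlap between the groups, as does that of Sirpa to Cd47, whereas Cd9 to Cd81 is lower in every DASA-58 library.

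The genes whose log2(FPKM + 1) followed Ocstamp most closely over the 6 libraries were Car2, the carbonic anhydrase that supplies the acid for bone resorption, Polr2i and Gstt1, with Pearson r of 0.999, 0.998 and 0.997. Those closest to Dcstamp were Phldb1, Arsb and Rabgef1, with r of 0.998, 0.997 and 0.996. Dcstamp was gene 93 in the order of likeness to Ocstamp (r = 0.978), and Ocstamp was gene 74 in the order of likeness to Dcstamp. The 6 libraries fall into 2 treatment groups, so any gene that differs between them gives a high r, and 835 and 819 genes had an r above 0.9 with Ocstamp and Dcstamp. These r are a description without a test.

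The regulators of the fusion protein genes were followed in a list of 19 genes, all of which passed the filter. Of these, 8 were lower, against 7.28% of all genes tested, 0 were higher, against 4.24%, and 11 did not pass in limma, with a median log2 fold change of -0.08 beside -0.03 for all genes tested. At an unadjusted p under 0.05 there were 9 lower and 3 higher, where 18.0% and 9.83% of all genes tested passed. With voom weights on the recovered fragments there were 8 lower and 2 higher, where 12.1% and 6.70% of all genes passed. Nfatc1, the central transcription factor of osteoclast differentiation, was 22.0, 20.3 and 20.2 FPKM in the DMSO libraries and 15.7, 14.8 and 14.5 FPKM in the DASA-58 libraries. Its groups did not overlap, and it fell by 0.45 on the log2 scale (standard error 0.046, limma, Benjamini-Hochberg adjusted p = 0.0012). Fos, the AP-1 partner required early in osteoclast differentiation, was 103, 99.8 and 96.2 FPKM in the DMSO libraries and 70.9, 79.4 and 68.3 FPKM in the DASA-58 libraries, again without overlap. It passed the test as lower, with a log2 fold change of -0.45.

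The other AP-1 genes of that list did not move alike. Jdp2, an AP-1 family member needed for osteoclast formation, showed the lowest log2 fold change of the list and went from 102 ± 6.98 to 53.1 ± 2.08 FPKM (SD, n = 3 each, log2 fold change -0.92). Fosl2 went from 9.17 ± 0.273 to 5.89 ± 0.326 FPKM (-0.56) and Junb from 172 ± 6.76 to 128 ± 2.26 FPKM (-0.43). All 3 had a Benjamini-Hochberg adjusted p no higher than 5.9e-04 in limma. Jun was at 0.17 and did not pass (limma, Benjamini-Hochberg adjusted p = 0.068), a value named here after it was seen. Spi1, the gene of the myeloid factor PU.1, was lower by a small amount, with a log2 fold change of -0.14 and an adjusted p of 0.014 (limma, Benjamini-Hochberg). That call was kept in 13 of 18 alternative settings. It was lost, with an adjusted p of 0.055, 0.055 and 0.051, without DMSO library 1, DASA-58 library 1 and DASA-58 library 2 (limma, Benjamini-Hochberg). Quantile normalization and a fit without the variance trend also lost it, with an adjusted p of 0.058 and 0.063 (limma, Benjamini-Hochberg). Mitf, a partner of PU.1 in osteoclasts, had a log2 fold change of -0.07 with a 95% interval of -0.17 to 0.03, and Tal1, described as a repressor of Dcstamp, one of -0.02 with an interval of -0.17 to 0.13.

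The tetraspanins Cd9 and Cd81 form a pair of close relatives that were at almost the same level with DMSO. Cd9 (ENSMUSG00000030342) lies on the minus strand of chromosome 6 from 125460266 to 125494791, and Cd81 (ENSMUSG00000037706) on the plus strand of chromosome 7 from 143052739 to 143067934. The stretches before their starts are shown because Cd81 passed the test and Cd9 did not. Each has 219 bases, from base -250 to base -32 counted from the RefSeq start of the gene, 5′ to 3′ on the strand of the gene, in build GRCm38.p6. The Cd9 stretch is chr6:125494792-125495010 on the minus strand and the Cd81 stretch is chr7:143052500-143052718 on the plus strand. Capitals mark every match to the motifs searched.
Cd9: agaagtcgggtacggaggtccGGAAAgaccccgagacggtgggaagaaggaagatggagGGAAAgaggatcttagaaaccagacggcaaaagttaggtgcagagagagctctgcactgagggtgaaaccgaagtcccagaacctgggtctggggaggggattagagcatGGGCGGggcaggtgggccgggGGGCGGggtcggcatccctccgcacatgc
Cd81: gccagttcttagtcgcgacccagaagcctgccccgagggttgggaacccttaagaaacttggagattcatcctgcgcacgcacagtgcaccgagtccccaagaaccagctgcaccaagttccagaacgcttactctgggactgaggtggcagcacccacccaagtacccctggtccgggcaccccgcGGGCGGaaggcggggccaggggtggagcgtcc

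The motifs were searched on both strands. They were TATAAA for the TATA box, GGGCGG for the GC box and TGANTCA for the AP-1 site. The NFAT core was searched as GGAAA, and the core of the antioxidant response element as TGACNNNGC. The Cd9 stretch held 2 GC boxes and 2 NFAT cores, and the Cd81 stretch held 1 GC box. The GC box was found in 28.3% and the NFAT core in 51.2% of the same window of 32851 promoters in the RefSeq table. The TATA box, the AP-1 site and the antioxidant response element core were in neither stretch and were in 9.9%, 6.1% and 8.7% of all windows. The GC content was 61.2% for Cd9 and 63.9% for Cd81. The table held entries for 4 of the 7 genes, Cd9, Cd81, Cd47 and Adam8, and none for Ocstamp, Dcstamp and Sirpa. A match describes letters only, and the absence of one says nothing about a factor.

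Cd9 was 28.9, 30.2 and 28.8 FPKM in the DMSO libraries and 28.0, 28.5 and 27.1 FPKM in the DASA-58 libraries. The DASA-58 libraries were all slightly below the DMSO libraries. The DMSO mean was 29.3 ± 0.792 FPKM, the DASA-58 mean 27.9 ± 0.747 FPKM (SD, n = 3 each), and the log2 fold change of -0.07 (95% interval -0.15 to 0.01) did not pass the test (limma, Benjamini-Hochberg adjusted p = 0.23). Cd81 was 28.7, 29.2 and 27.4 FPKM in the DMSO libraries and 36.3, 36.5 and 39.4 FPKM in the DASA-58 libraries. Every DASA-58 library was above every DMSO library. Its mean rose from 28.4 ± 0.902 to 37.4 ± 1.75 FPKM (SD, n = 3 each), with a log2 fold change of 0.38, a standard error of 0.042, a 95% interval of 0.29 to 0.48 and an adjusted p of 0.0015 (limma, Benjamini-Hochberg). The exact two-sided permutation test of FPKM gave p = 0.10 for both genes.

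The ratio of Cd9 to Cd81 within a library was 1.01, 1.04 and 1.05 with DMSO and 0.771, 0.781 and 0.686 with DASA-58. It was lower in all DASA-58 libraries, by 0.47 on the log2 scale. The standard error of that difference was 0.062, and the exact permutation test gave p = 0.10, two-sided and the smallest possible, with an adjusted p of 0.5 over the 5 ratios. The difference between Cd9 and Cd81 was therefore larger than the spread between libraries but could not pass a corrected threshold in this design.

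Among the 29 tetraspanin genes listed, Cd53 and Cd63 had the highest levels, and Cd9 took 4.10%, 4.13% and 4.04% of the summed FPKM of the family in the DMSO libraries. With DASA-58 its share was 3.63%, 3.76% and 3.54%. The share of Cd81 was 4.07%, 3.99% and 3.85% with DMSO and 4.71%, 4.82% and 5.17% with DASA-58, so Cd81 and Cd9 exchanged ranks 8 and 9. Neither pair of shares overlapped between the groups. Since the shares of a family add up to a whole, a gene's share also moves with the other genes.

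Apart from Cd9 and Cd81, 13 tetraspanin genes passed the filter, of which 1 was higher, 1 lower and 11 did not pass, with a median log2 fold change of -0.01. These counts are near the share over all genes tested, 4.24% higher and 7.28% lower. The higher one was Cd53, a tetraspanin of leukocytes, at 155, 163 and 168 FPKM in the DMSO libraries and 210, 206 and 207 FPKM in the DASA-58 libraries. These groups did not overlap, and the log2 fold change was 0.36 (limma, Benjamini-Hochberg adjusted p = 8.0e-04). Cd82 was the lower one, with a log2 fold change of -0.15 and an adjusted p of 0.039 (limma, Benjamini-Hochberg). That call was kept in only 6 of 18 alternative settings, with an adjusted p of up to 0.12 (limma, Benjamini-Hochberg), and of the libraries left out in turn only the omission of DMSO library 3 kept it. Among 10 genes of known tetraspanin partners, 1 was lower, against 7.28% of all genes tested, 2 were higher, against 4.24%, and 7 did not pass. With voom weights 2 were lower and 3 higher, where 12.1% and 6.70% of all genes passed. The lower one was Itga5, the α subunit of a fibronectin receptor, at -0.21. The higher ones were the scavenger receptor gene Cd36, at 0.53, and Itgb2, the β2 integrin gene of leukocytes, at 0.14. The call of Itgb2 was kept in 13 of 18 alternative settings and was lost, with an adjusted p of 0.060 each, without DASA-58 library 2 or 3, and with 0.054, 0.063 and 0.057 without the filter on low values, the variance trend and the variance shrinkage (limma, Benjamini-Hochberg).

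Cd47 (ENSMUSG00000055447) encodes the ligand of SIRPα and lies on the plus strand of chromosome 16 from 49800533 to 49915010. Its level was 65.7, 61.5 and 65.9 FPKM in the DMSO libraries and 60.0, 66.0 and 64.3 FPKM in the DASA-58 libraries. The groups overlapped fully, and both the lowest and the highest value came from DASA-58 libraries. The means were 64.4 ± 2.46 and 63.4 ± 3.12 FPKM (SD, n = 3 each). The log2 fold change was -0.02 with a 95% interval of -0.12 to 0.08 (limma, Benjamini-Hochberg adjusted p = 0.79), and it was 0.018 without DASA-58 library 1. The exact two-sided permutation test gave p = 0.7.

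Sirpa (ENSMUSG00000037902), the gene of the receptor SIRPα, lies on the plus strand of chromosome 2 from 129592835 to 129632228. Its level was 510, 502 and 512 FPKM in the DMSO libraries and 528, 531 and 521 FPKM in the DASA-58 libraries. The DASA-58 libraries were all above the DMSO libraries, by a small margin. The DMSO mean was 508 ± 5.16 FPKM, and the DASA-58 mean 526 ± 5.15 FPKM (SD, n = 3 each). The log2 fold change of 0.05 had a 95% interval of -0.00055 to 0.10 and did not pass the test (limma, Benjamini-Hochberg adjusted p = 0.18), and the exact two-sided permutation test gave p = 0.10. With 45749 to 48802 fragments per library, counting error alone would give a coefficient of variation of 0.466% with DMSO and 0.455% with DASA-58, below the 1.02% and 0.979% observed.

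The ratio of Sirpa to Cd47 was 7.76, 8.16 and 7.77 with DMSO and 8.80, 8.04 and 8.09 with DASA-58. The groups overlapped, with a difference of 0.07 on the log2 scale, a standard error of 0.048 and an adjusted p of 0.5 (exact permutation test, two-sided, unadjusted p = 0.3). Among the 6 SIRP genes, Sirpa took 92.8% to 93.2% of the summed FPKM with DMSO and 92.2% to 92.6% with DASA-58. These genes are near-identical in parts, so reads may be split between them, and their single values are uncertain. Of the 11 other genes of the CD47 and SIRP list that passed the filter, only Sirpb1c passed the test. It was higher, where 4.24% of all genes tested were. At an unadjusted p under 0.05 in limma, 4 of the 11 were higher and 0 lower, where 9.83% and 18.0% of all genes tested passed. With voom weights 3 genes were higher, where 6.70% of all genes were. Sirpb1c was at 11.4, 11.6 and 11.7 FPKM in the DMSO libraries and 13.3, 14.5 and 15.0 FPKM in the DASA-58 libraries. It rose by 0.28 on the log2 scale with an adjusted p of 0.0096 (limma, Benjamini-Hochberg), which was 0.066 without variance shrinkage. The other 10 did not pass, among them Thbs1, whose product thrombospondin-1 is another ligand of CD47 (0.14, 95% interval 0.03 to 0.24, limma, Benjamini-Hochberg adjusted p = 0.089). Ptpn6, the gene of the phosphatase SHP-1 that SIRPα recruits, had a log2 fold change of -0.0049 with an interval of -0.07 to 0.06.

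Adam8 (ENSMUSG00000025473) lies on the minus strand of chromosome 7 from 139978932 to 139992562. Its level was 271, 276 and 269 FPKM in the DMSO libraries and 258, 282 and 265 FPKM in the DASA-58 libraries. The groups overlapped, and the DASA-58 libraries held both the lowest and the highest value. The means were 272 ± 3.56 and 268 ± 12.3 FPKM (SD, n = 3 each). The log2 fold change was -0.02 with a 95% interval of -0.10 to 0.06 (limma, Benjamini-Hochberg adjusted p = 0.76), 0.0081 without DASA-58 library 1, and the exact two-sided permutation test gave p = 0.7. The coefficient of variation was 1.31% with DMSO and 4.57% with DASA-58, where counting error alone would give 0.655% and 0.656%.

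Adam8 had the highest level of the 11 ADAM genes listed, with 58.3%, 59.1% and 57.9% of their summed FPKM in the DMSO libraries and 56.2%, 58.1% and 57.0% in the DASA-58 libraries. These shares overlapped between the groups. Of 7 other ADAM and TIMP genes that passed the filter, 0 passed the test in limma with Benjamini-Hochberg correction, and their median log2 fold change was 0.08. At an unadjusted p under 0.05, 3 were higher and 0 lower, where 9.83% and 18.0% of all genes tested passed. With voom weights again 0 passed. The genes of TIMPs encode inhibitors of metalloproteinases.

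**Figure D4:**
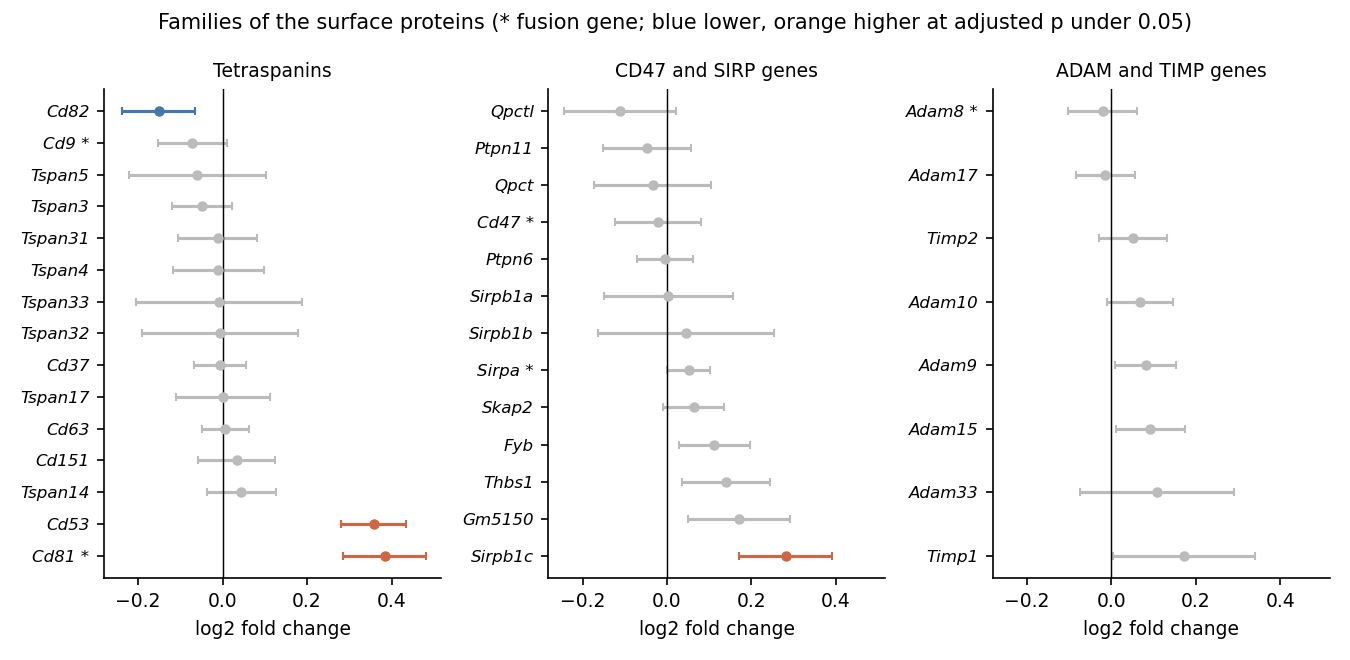
log2 fold change of DASA-58 against DMSO on the log2(FPKM + 1) scale (x axis) with 95% intervals for the tested tetraspanins, CD47 and SIRP genes, and ADAM and TIMP genes (y axes), with the fusion genes marked by an asterisk, genes lower at an adjusted p under 0.05 in blue, higher in orange and others in grey. Cd81 at 0.38 and Cd53 at 0.36 stand apart from the other tetraspanins, and Adam8, Cd47 and Sirpa lie among the grey genes of their families.

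A wider list held 37 other genes with described roles in macrophage or osteoclast fusion, of which 36 were listed and 32 passed the filter. Of these, 12 were lower, against 7.28% of all genes tested, 4 were higher, against 4.24%, and 16 did not pass, with a median log2 fold change of -0.07. At an unadjusted p under 0.05 there were 15 lower and 8 higher, where 18.0% and 9.83% of all genes tested passed. With voom weights there were 13 lower and 7 higher, where 12.1% and 6.70% of all genes passed. Atp6v0d2, the proton pump subunit needed for fusion, was 33.5, 30.7 and 32.9 FPKM in the DMSO libraries and 17.6, 17.3 and 16.8 FPKM in the DASA-58 libraries. It fell by 0.87 on the log2(FPKM + 1) scale without overlap between the groups (limma, Benjamini-Hochberg adjusted p = 4.3e-05). On that scale this was close in size to Ocstamp and Dcstamp. Without the pseudocount, the log2 ratio of the means was -0.91, beside -1.07 for Ocstamp and -1.09 for Dcstamp. The difference between these genes was not tested. Itgb3, the β3 integrin subunit of the osteoclast vitronectin receptor, went from 5.29 ± 0.224 to 2.46 ± 0.222 FPKM (SD, n = 3 each, log2 fold change -0.86). Mmp9, a matrix metalloproteinase of osteoclasts, went from 412 ± 17.5 to 246 ± 7.94 FPKM (SD, n = 3 each, log2 fold change -0.74). Both passed the test with a Benjamini-Hochberg adjusted p no higher than 2.8e-04 in limma.

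Among the genes of that list that rose, Cd36, which takes up oxidized lipids and has a described role in macrophage fusion, was 336, 342 and 362 FPKM in the DMSO libraries and 489, 511 and 497 FPKM in the DASA-58 libraries. The groups did not overlap, and the log2 fold change was 0.53 (limma, Benjamini-Hochberg adjusted p = 1.4e-04). The other 3 that rose were Trem2, Cd200r1 and Ninj1, with log2 fold changes of 0.32, 0.26 and 0.19, which were named after their values were seen. Cd200r1 is the receptor of CD200, whose own gene, Cd200, fell by 0.65 on the log2 scale. Cd44, the hyaluronan receptor, was 60.9, 62.6 and 63.0 FPKM in the DMSO libraries and 56.6, 62.2 and 58.9 FPKM in the DASA-58 libraries. These groups overlapped, with a log2 fold change of -0.07 and a 95% interval of -0.16 to 0.02.

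**Figure D5:**
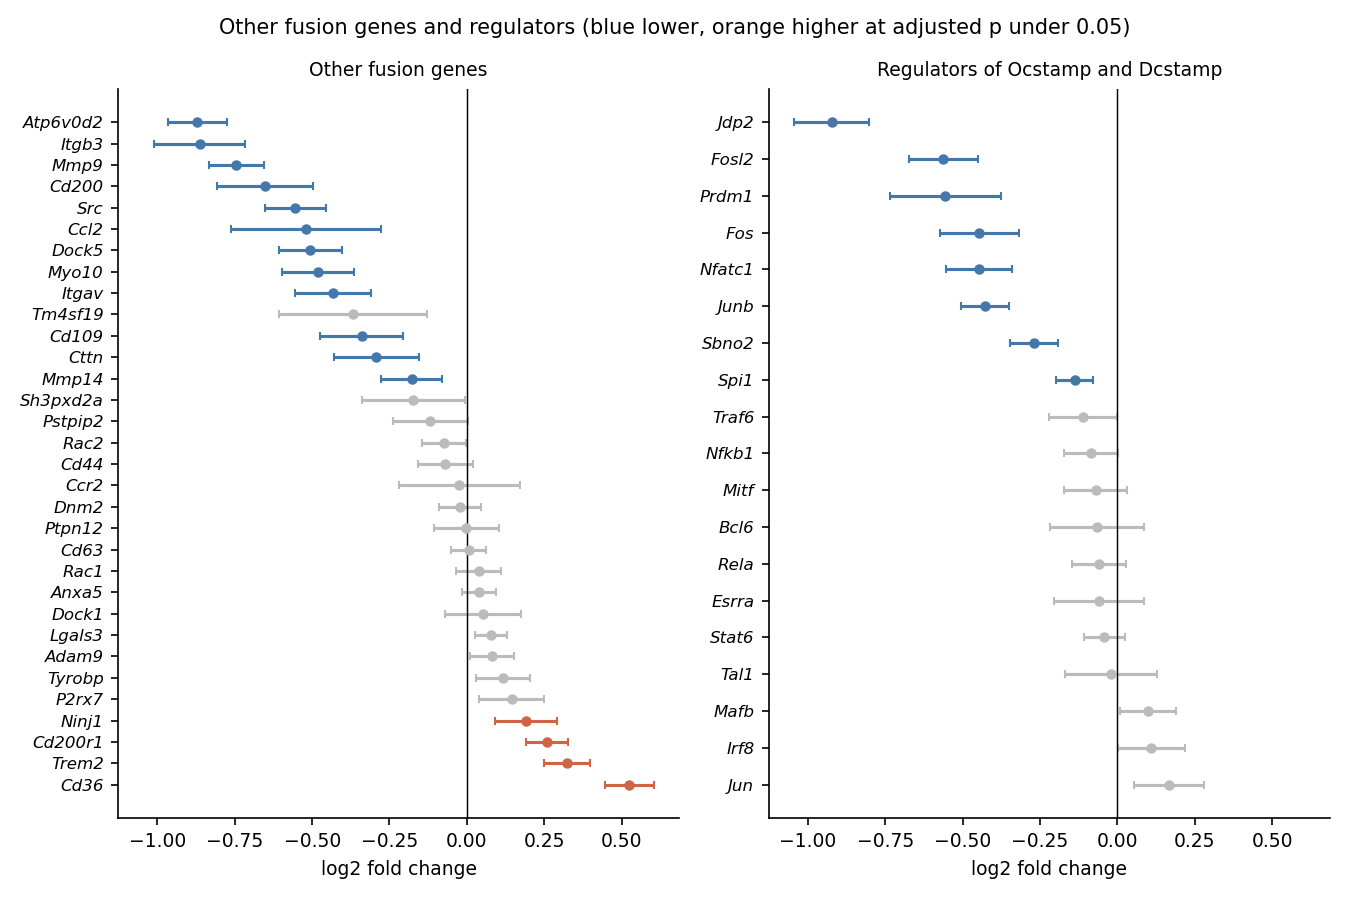
log2 fold change of DASA-58 against DMSO on the log2(FPKM + 1) scale (x axis) with 95% intervals for the 32 other fusion genes tested and the 19 regulators (y axes), with genes lower at an adjusted p under 0.05 in blue, higher in orange and others in grey. Atp6v0d2, Itgb3 and Mmp9 lead the lower genes at the left and Cd36 the higher ones at the right, while no regulator is orange.

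The cell types in the libraries were read from marker lists. All 10 macrophage markers, which the label BMM calls for, passed the filter, with Lyz2 at 15156 and Csf1r at 322 FPKM with DMSO. Of these 10, 4 were higher with DASA-58, against 4.24% of all genes tested, and 2 were lower, against 7.28%. Their summed level was 16490 to 17327 FPKM in the DMSO libraries and 17431 to 19744 FPKM in the DASA-58 libraries. With DMSO, most of this sum was Lyz2. Of 8 osteoclast markers other than Ocstamp and Dcstamp, 7 passed the filter and all 7 were lower, against 7.28% of all genes tested, at a median log2 fold change of -0.86 and sums of 765 to 819 FPKM in the DMSO libraries and 445 to 462 FPKM in the DASA-58 libraries. Mmp9, Itgb3 and Atp6v0d2 were in this list and in the wider list of fusion genes above, so they were counted in both. The marker lists, too, were chosen with earlier results of these data known. Ocstamp and Dcstamp moved with these osteoclast markers.

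Markers of other cell types were also summed. Neutrophil markers fell in 3 of 7 tested genes, S100a8, S100a9 and Camp, against 7.28% of all genes tested. Their sums were 127 to 133 FPKM in the DMSO libraries and 103 to 107 FPKM in the DASA-58 libraries. The defining gene Ly6g was at 0.038 FPKM on average with DMSO and at 0 with DASA-58. Stromal markers had 0 of 3 tested genes past the threshold in limma with Benjamini-Hochberg correction, and sums of 35.4 to 37.8 and 36.0 to 37.0 FPKM. At an unadjusted p under 0.05 and with voom weights 1 was lower, where 18.0% and 12.1% of all genes were. T and NK cell markers summed to 5.70 to 6.46 and 5.64 to 6.27 FPKM, nearly all of it Cd4, and B cell markers to 1.71 to 2.04 and 2.09 to 2.38 FPKM. No dendritic, mast cell or basophil marker passed the filter, with sums of at most 0.740 FPKM. The erythroid markers are not analysed here. The part of the neutrophil and macrophage markers in the results of the 7 genes was not tested.

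Some of the values carry limits from the annotation. Exons of Cd9, Cd81 and Adam8 overlap an antisense gene, and the use of strand in counting is not stated. Those antisense genes were at most at 0.055, 0.219 and 0.269 FPKM. Such low values do not show whether reads in the shared exons went uncounted for both genes, which was not tested. The levels of Dcstamp and Cd47 fitted gene lengths of 1993 and 5277 bases rather than the annotated 2664 and 6276. Another length would scale their level in all libraries alike and leave the ratio of their group means as it is. Their fold changes with a pseudocount would shift, and this shift was not computed. The level order of Dcstamp and Ocstamp, and the size of the ratios with Dcstamp or Cd47, hold for the fitted lengths only. The libraries were close in depth, with 18191560 to 18968556 fragments each.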

How the data were processed

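RNA from BMMs was sequenced in 6 libraries, 3 with DMSO and 3 with DASA-58, and groups and replicate numbers were taken from the sample labels. The authors deposited 1 table of FPKM, fragment counts scaled by gene length and depth, for 23504 genes, and 0 columns were left unmapped. The submitters' processing notes name HISAT2 2.1.0, HTSeq 0.6.0 and mm8, while the use of strand is not given in the sources used here. With exon lengths of GENCODE mouse release 21 the FPKM values of 21341 genes (90.8%) were whole fragments in all libraries within a tolerance of 0.01, a fitted length made 2135 more (9.08%) whole, and 28 were not recovered. Fragments served to state the precision and for the voom alternative. Symbols were found for 23455 identifiers, and 49 had none.

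The log2(FPKM + 1) values of the 10965 genes averaging 1 FPKM or more were fitted in limma 3.58.1 (R 4.3.3) with a trend in the variance and no replicate block, and p-values were adjusted by Benjamini-Hochberg over all of these genes. Single values and 5 ratios within libraries were compared with exact two-sided permutation tests in SciPy 1.17.1, and the ratios were adjusted over the 5. The limma fit was run on simulated fragments with known fold changes and the same relative spread beyond counting error in every gene. That run did not cover the scaling between libraries or the permutation tests. The 7 genes and all gene lists were chosen with earlier results of these data known, and all lists were described by counts and medians only. Genes named are the 7, at most 4 further genes of each list that is not a marker list, taken by the smallest p among those with an adjusted p under 0.05, also Nfatc1, Fos, Spi1, Mitf, Tal1, Atp6v0d2, Cd44, Thbs1 and Ptpn6, and the 3 genes most like Ocstamp and Dcstamp in Pearson r over the 6 libraries. Marker genes, Ctsk, Cd63, Jun, Cd200, Cd200r1, Trem2 and Ninj1 are outside this rule and were named after their values were seen. The alternatives were no filter or a minimum mean of 5 FPKM, pseudocounts of 0.1 and 5, scaling to the median, to a trimmed mean, to equal totals or by quantiles, a fit without trend or without variance shrinkage, voom, a replicate block, and the omission of each library. Promoter sequences came from the RefSeq table of GRCm38.p6. Figures were made with Python 3.11.15 and matplotlib 3.10.9.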

Additional observations from a re-analysis of the deposited data

How the results depend on the processing

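The calls of Ocstamp, Dcstamp, Cd9, Cd81 and Sirpa were the same in all 18 alternatives, with log2 fold changes of -1.07 to -0.54, -1.10 to -0.62, -0.09 to -0.04, 0.34 to 0.41 and 0.03 to 0.08. With each library left out in turn, Ocstamp lay between -0.93 and -0.86, Dcstamp between -1.01 and -0.87, Cd81 between 0.35 and 0.40, Cd47 between -0.053 and 0.018 and Adam8 between -0.056 and 0.0081. Cd47 and Adam8 did not pass the test in any alternative, and their sign changed under centring on the median (0.0052 and 0.0067), a trimmed mean of log ratios (0.0031 and 0.0047) and, for Adam8, quantile normalization (0.00068). Tal1 changed sign under quantile normalization (0.0063), centring (0.0055) and a trimmed mean (0.0035), and Ptpn6 under centring (0.022) and a trimmed mean (0.020), while with each library left out they lay between -0.062 and 0.017 and between -0.020 and 0.019. The log2 ratio of Ocstamp to Dcstamp lay between -0.091 and 0.096 with each library left out, and that of Ocstamp to Ctsk was 0.037 with a pseudocount of 1. Without variance shrinkage the adjusted p of Fos was 0.055 (limma, Benjamini-Hochberg adjustment), and with voom that of Thbs1 was 0.014 (limma, Benjamini-Hochberg adjustment).

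The counts of lower and higher genes, 798 and 465, depended more on the settings. They were 372 and 257 without a filter, 314 and 227 without variance shrinkage and 1319 and 733 with voom on whole fragments. The count of lower genes was 504 with centring, 522 with a trimmed mean and 515 without a trend. With each library left out, they lay between 385 and 604 and between 273 and 373, and without DMSO library 1 they were 385 and 282, without DASA-58 library 1 417 and 273, without library 2 465 and 295, and without library 3 396 and 277. The cause of these shifts was not tested, except that a left-out library means fewer samples. The replicate numbers gave no sign of pairing, since the deviations of same-numbered libraries from their group means correlated at -0.015, 0.016 and -0.016. Such values cannot show that the libraries were unpaired. With the replicate number as a block, the counts were 579 and 378, and Ocstamp had an adjusted p of 0.0011, Dcstamp of 0.0034 and Cd81 of 0.011 (limma, Benjamini-Hochberg adjustment). Of the genes recomputed under the block, which are the 7 and the 20 others taken from the lists by the naming rule, only Cd82 lost its call. Groups of 3 libraries allow no exact p under 0.10, and with DASA-58 Ocstamp and Dcstamp rest on 145 to 251 fragments per library.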
